A study of Mus musculus with 6 samples.

Results

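The 4 inhibitor of differentiation genes Id1, Id2, Id3 and Id4, the transcription factor gene Atoh8 and the E-protein genes Tcf3, Tcf4 and Tcf12 were followed in cultured mouse pulmonary arterial smooth muscle cells given bone morphogenetic proteins. These 8 genes were taken by symbol from the 21785 gene rows of the deposited matrix, and all 8 were found and tested. Id1, Id2, Id3, Id4 and Atoh8 rose after stimulation, each to between 4.04 and 5.6 times its control level on the log2(value + 1) scale. The E-protein genes went the other way by a smaller amount: Tcf12 fell, and Tcf3 and Tcf4 were lower in every stimulated library. The calls of Id4 and Tcf12 each held in only 2 of the 6 fits that left out 1 library. Tcf3 and Tcf4 did not pass the unpaired test, and passed with replicate numbers treated as pairs, which the labels do not state.

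The cells were grown out of iron-filled lung vessels of C57BL/6 mice and kept for 48 h in medium without supplements. Of the 6 samples, 3 then received BMP9 at 1 ng/mL together with BMP10 at 5 ng/mL for 6 h, and 3 controls received neither ligand. No gene was altered in either group, and both ligands were always given together, so their separate actions were not measured. Whether the 3 samples of a group were separate animals or cultures is not stated in the labels, so p-values measure the spread between these samples, which may be technical.

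Basic helix-loop-helix (bHLH) factors bind DNA as dimers at the E-box, a short palindromic motif. E-proteins, the broadly expressed members of the family, pair with themselves or with tissue-restricted partners. Id proteins keep the helix-loop-helix surface but lack the basic region that touches DNA, so an E-protein bound by an Id protein cannot hold an E-box. BMP9 and BMP10 act through the type I receptor ALK1 and the type II receptor BMPR2, and Id genes are among the best known direct targets of the SMAD1/5 factors this receptor complex activates. Loss of BMPR2 signaling is the main inherited cause of pulmonary arterial hypertension.

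Total RNA was made into stranded whole-transcriptome libraries, and the deposited values are read counts scaled by 1 factor per library and rounded, called normalized counts here. They sum to between 27295973 and 31903795 per library, and the steps in the values put the reads behind them at 23.3 to 28.0 M, except 54.4 M in stimulated replicate 3. Smooth muscle markers were present, with Acta2 at 23470 or more in each library, but so were those of other cells: summed over 13 endothelial markers, the level was 12211, 46624 and 14389 in control replicates 1 to 3 and 9956, 44962 and 16682 in stimulated ones. All 13 were highest in replicate 2 of both groups, and none was at 0. The sum over 7 epithelial markers was also highest in replicate 2 of both groups (31570 and 33929, against 1768 to 16295 elsewhere). The macrophage gene Lyz2 was at 81014 or more in each library. The sum over 7 fibroblast markers was the largest, 253814 to 454994, but most of it was Col1a1 and Col1a2 (each 110532 or more). Tcf21, Dpt and Lum lay between 181 and 963, so these sums do not rank the cell types. Markers of several cell types moved with the treatment, as the members did: by limma 4 of 7 smooth muscle markers rose (Acta2 by 1.77 ± 0.30, Tagln, Cnn1 and Lmod1), 2 of 6 pericyte markers rose (Cspg4 by 1.77 ± 0.13 and Pdgfrb), and 1 of 7 fibroblast markers fell (Pdgfra by 1.29 ± 0.18 on the log2 scale, adjusted p = 0.00639). Over all genes tested, 8.61% rose and 4.75% fell by that test, so 1 fall among 7 fibroblast markers says little of the list as a whole. The smooth muscle calls came to 1 with control replicate 1 dropped and 0 with stimulated replicate 3 dropped. The other pericyte markers were not called and were split, with Kcnj8 (-0.99) and Abcc9 (-0.33) lower and Rgs5 (0.62) and Notch3 (0.27) higher. With replicate numbers treated as pairs Rgs5 also rose and Kcnj8 fell, where 14.9% of all genes rose and 12% fell. The pericyte median of 0.45 was 0.01 without control replicate 1 and -0.06 without stimulated replicate 2. The part of these cell types in the members' changes was not tested. In such mixed bulk samples fewer cells of a type and less RNA per cell cannot be told apart.

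Before the values, DNA ahead of the RefSeq starts of induced genes is shown, since these genes moved together and SMAD1/5 complexes are known to favour the GC-rich motif GGCGCC. RefSeq windows (GRCm38.p6) from 250 bases before to 50 after the start were matched for Id2, Id3, Id4, Atoh8, Tcf3 and Tcf12, and Id1 and Tcf4 were not matched. The stretches below run 5′ to 3′ on the gene's strand, leave out annotated exons, and carry in capitals each GGCGCC, each SMAD box GTCTG or CAGAC, and each E-box CANNTG. They lie at chr12:25096254-25096342 (minus strand) for Id2, chr13:48260866-48261115 (plus strand) for Id4 and chr6:72235578-72235827 (minus strand) for Atoh8. The RefSeq start of Id2 lies inside the gene span annotated by GENCODE (25093799 to 25097140), so its stretch is a non-exonic part within that gene and not sequence ahead of it.
Id2: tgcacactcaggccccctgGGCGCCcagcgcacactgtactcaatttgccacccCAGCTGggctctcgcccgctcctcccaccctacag
Id4: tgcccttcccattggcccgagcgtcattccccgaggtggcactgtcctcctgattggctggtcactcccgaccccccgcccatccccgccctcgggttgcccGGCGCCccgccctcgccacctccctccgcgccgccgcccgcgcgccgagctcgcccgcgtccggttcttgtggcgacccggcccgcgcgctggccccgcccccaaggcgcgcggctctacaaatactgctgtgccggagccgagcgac
Atoh8: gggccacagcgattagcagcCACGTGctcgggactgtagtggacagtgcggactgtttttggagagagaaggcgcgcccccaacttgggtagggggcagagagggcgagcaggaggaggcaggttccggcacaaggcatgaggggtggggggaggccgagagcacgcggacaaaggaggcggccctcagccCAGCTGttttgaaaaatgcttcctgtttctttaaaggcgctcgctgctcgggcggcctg

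Id2 and Id4 each held 1 GGCGCC, which reads the same on both strands and occurred in 11.9% of all 32544 windows of this length. Id3, whose window lies inside an annotated first exon and is not printed, held no GGCGCC and 2 SMAD boxes of the form GTCTG or CAGAC, a motif found in 49.5% of windows. The Atoh8 window held 2 E-boxes, CACGTG and CAGCTG, and the Id2 window 1, CAGCTG. An E-box of any kind occurred in 72.3% of windows and CAGCTG in 16.4%. The longer SMAD motifs GTCTAGAC (0.215% of windows, a palindrome that itself holds no GTCTG) and CAGACA (20.9%, overlapping the SMAD box on the other strand) and the E-protein type of E-box CAGGTG (20.3%) were in none of the members' windows, searched on both strands. The Tcf3 and Tcf12 windows (1 and 3 starts) held no GGCGCC, and neither did the Atoh8 window. Each Tcf3 and Tcf12 window held an E-box, which was CAGCTG in 1 Tcf12 window, and another Tcf12 window held a SMAD box, CAGAC. E-boxes and SMAD boxes were thus not confined to induced genes. GC content was 63.3% for Id2, 60% for Id3, 73.3% for Id4 and 66.7% for Atoh8, and 78.2%, 70.3%, 94.5% and 84.9% of all windows had less. These matches describe letters in a short window and say nothing of sites farther away.

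Id1 encodes the inhibitor best known as a BMP target in vascular cells. The gene lies on chromosome 2 from 152736251 to 152737410 in mm10, on the plus strand. Its normalized counts were 436, 691 and 526 in control replicates 1 to 3 and 1848, 2736 and 2076 in stimulated replicates 1 to 3. The lowest stimulated library stood well above the highest control, and replicate 2 was the highest of its group in both. Taken by replicate number, Id1 was 4.24, 3.96 and 3.95 times its control. The log2 change was 2.01 ± 0.21 (SE) by limma (Benjamini-Hochberg adjusted p = 0.00217, n = 3 per group).

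Of all 21743 genes tested, 8.61% rose and 0.763% rose by at least 2 on the log2 scale at an adjusted p under 0.05. The 5 induced members all belong to that smaller share. Genes whose groups do not overlap made up 33.2% of all genes tested, and each of the 8 members was among them (17.8% of all genes were higher without overlap and 15.4% lower).

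Id2, which lies on chromosome 12 from 25093799 to 25097140 (minus strand), went from 702, 980 and 635 in controls to 4292, 4247 and 4217. Its stimulated libraries differed by only 1.02 times between highest and lowest, against 1.54 times in controls. Its change of 2.49 ± 0.16 (limma adjusted p = 0.00048) put it at rank 85 of 21743 by size of rise, the highest of the members. By replicate number the folds were 6.11, 4.33 and 6.64, lowest in replicate 2, where the control level was highest.

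Id3, on chromosome 4 from 136143497 to 136145755 (plus strand), was the most abundant Id transcript. It read 1276, 2779 and 1458 in controls and 7851, 9796 and 8638 after stimulation. Control replicate 2 stood at 2.18 times control replicate 1, yet remained below every stimulated library. The log2 change was 2.33 ± 0.28 (limma adjusted p = 0.00362), and the folds by replicate number were 6.15, 3.53 and 5.93. As for Id2, replicate 2 showed the smallest fold.

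Id4 was the scarcest member. It lies on chromosome 13 from 48261228 to 48266026 (plus strand), and 4.44% of its exonic bases also belong to opposite-strand genes, whose reads cannot be told apart from its own if strand was not used in counting. Normalized counts were 33, 130 and 89 in controls and 235, 546 and 369 after stimulation, which rest on an estimated 31 to 131 reads in controls and 178 to 632 in stimulated libraries. The groups did not overlap, but controls spread 3.94 times from lowest to highest. The change was 2.30 ± 0.53 (limma adjusted p = 0.032; 95% interval 1.06 to 3.54). Of the 6 libraries, 4 were each needed for that call: the adjusted p was 0.0577 with control replicate 1 left out (log2 change 1.74), 0.0869 with control replicate 3, 0.0848 with stimulated replicate 2 and 0.121 with stimulated replicate 3 left out.

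Atoh8 encodes a bHLH factor that BMP9 and BMP10 are known to induce in endothelial cells. It lies on chromosome 6 from 72206177 to 72235577 (minus strand), directly downstream of the stretch printed for it. Counts were 200, 367 and 245 in controls and 944, 2026 and 1194 after stimulation. Replicate 2 was again the highest in both groups, at 1.84 and 2.15 times the lowest library of its group. By replicate number the folds were 4.72, 5.52 and 4.87, the largest in replicate 2, unlike those of Id2 and Id3. The log2 change was 2.33 ± 0.32 (limma adjusted p = 0.00626).

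**Figure D1:**
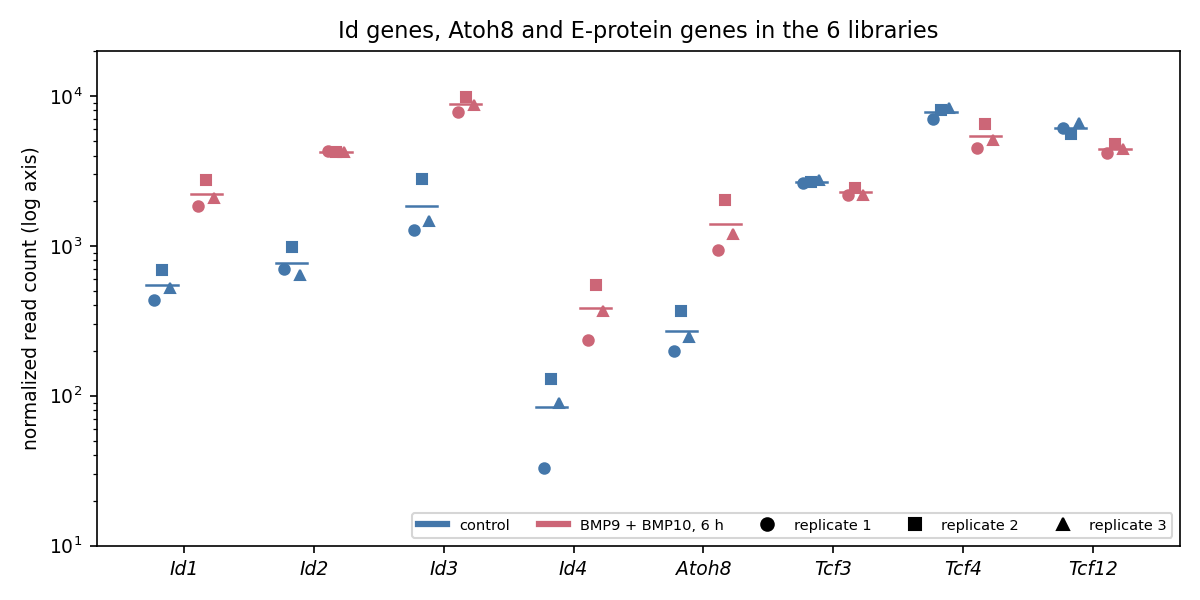
Normalized read counts (log axis) of the 8 genes in each library, with controls and stimulated samples in separate colours, symbols for replicate numbers and a bar at each group mean. Id1 to Id4 and Atoh8 lie higher in all stimulated libraries (Id1 1848 or more, against 691 or less), and the 3 E-protein genes lie lower in all of them.

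Endothelial cells also carry the receptor for BMP9 and BMP10 and make Id transcripts, and their markers were highest in the same replicate 2 libraries as Id1, Id3, Id4 and Atoh8. Without both replicate 2 libraries the log2 changes were 2.03 for Id1, 2.67 for Id2, 2.59 for Id3 and 2.26 for Atoh8, all still called by limma (adjusted p = 0.00726, 0.00318, 0.00318 and 0.00968). Id4 changed by 2.42 there and was not called (adjusted p = 0.0629). None of the 13 endothelial markers passed limma between groups (0 at an unadjusted p under 0.05), and their median log2 change of -0.24 had no stable sign, ranging from -0.88 when stimulated replicate 2 was left out to 0.36 when control replicate 2 was. With replicate numbers treated as pairs, Kdr and Sox18 rose and Cldn5, Tek and Egfl7 fell, where 14.9% of all genes rose and 12% fell. The part of endothelial cells in the level of each gene was not tested.

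E-protein transcripts were lower after stimulation. Tcf12 encodes the E-protein HEB and lies on chromosome 9 from 71842688 to 72111871 (minus strand). It read 6062, 5545 and 6599 in controls and 4144, 4762 and 4414 after stimulation. All 3 stimulated libraries lay below the lowest control. The log2 change was -0.45 ± 0.10 (limma adjusted p = 0.0247), where 4.75% of all genes tested fell. The call needed 4 of the 6 libraries, as the adjusted p was 0.09 or 0.0957 when control replicate 1 or 3 was left out and 0.0643 or 0.101 when stimulated replicate 1 or 3 was. The log2 change then lay between -0.45 and -0.39.

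Tcf4 encodes the E-protein E2-2, which is a separate gene from the Wnt effector sometimes called by the same name. It lies on chromosome 18 from 69343356 to 69689079 (plus strand). Its normalized counts were 6975, 8019 and 8295 in controls and 4464, 6528 and 5095 after stimulation. Stimulated replicate 2 came closest to the controls without reaching them. The change of -0.55 ± 0.15 did not pass (limma adjusted p = 0.0548; 95% interval -0.90 to -0.20), and it passed once stimulated replicate 2 was dropped (log2 change -0.70, adjusted p = 0.0185) or the whole second pair (-0.67, 0.041).

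Tcf3 encodes the E-proteins E12 and E47, which arise by splicing of 1 gene on chromosome 10 from 80409514 to 80433647 (minus strand). Controls read 2605, 2671 and 2733, a spread of 1.05 times. Stimulated libraries read 2188, 2435 and 2184, all below the lowest control. The change of -0.24 ± 0.08 did not pass (limma adjusted p = 0.0994; 95% interval -0.42 to -0.05).

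Replicate numbers were treated as pairs because same-numbered libraries deviated alike in these same data, and the labels do not state a pairing. For number 3 the likeness was weak (correlation 0.218, against 0.287 between control 3 and stimulated 1). With the replicate number as a block all 8 members passed limma, where 26.8% of all genes did (14.9% higher and 12% lower). The block gave an adjusted p of 0.0439 for Tcf3 and 0.00611 for Tcf4. Pair by pair, the log2 changes of Tcf3 were -0.25, -0.13 and -0.32, those of Tcf4 -0.64, -0.30 and -0.70, and those of Tcf12 -0.55, -0.22 and -0.58. In each of these genes pair 2 showed the smallest fall. Scaling to equal library totals shifts every gene down alike, the median of all genes from -0.03 to -0.20 and the 3 genes to -0.41, -0.72 and -0.62, so their distance from the median is the same by construction and the calls it adds for Tcf3 and Tcf4 are no separate evidence.

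**Figure D2:**
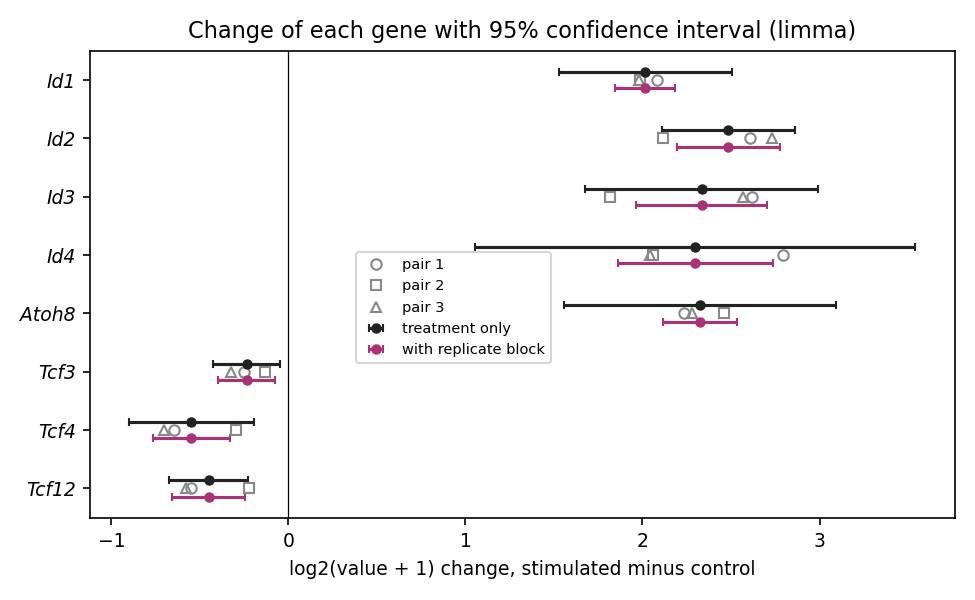
Log2(value + 1) change of each gene, stimulated minus control, with 95% confidence intervals from limma without and with the replicate block (filled points) and the change within each same-numbered pair (open symbols). The 5 induced genes lie at 2.01 or above, and the 3 E-protein genes between -0.55 and -0.24.

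Levels of different genes were compared per kilobase of annotated exon (normalized count divided by union exon length). Id3 led the Id genes in all 6 libraries, at 712.5, 1552 and 814.1 per kb in controls and 4384, 5470 and 4823 after stimulation. It made up 51.4% to 60.1% of the summed Id level in controls and 56.2% to 57.2% in stimulated libraries. Id1 exceeded Id2 in each control (375.9, 595.7 and 453.4 against 287.9, 402.0 and 260.5 per kb). After stimulation the order was mixed, with Id1 at 1593, 2359 and 1790 and Id2 at 1760, 1742 and 1730 per kb, so these neighbours did not differ beyond their spread. Atoh8 was at 79.8 to 146.4 per kb in controls and 376.5 to 808.1 after stimulation, above Id4 in every library. Id4 never exceeded 1.49% of the Id sum.

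Among E-protein genes, Tcf3 had the highest level per kb of union exon, at 645.0, 661.3 and 676.7 in controls and 541.7, 602.9 and 540.7 after stimulation. Tcf12 followed at 357.1 to 424.9 and 266.9 to 306.7, and Tcf4 at 254.7 to 302.9 and 163.0 to 238.4. That order depends on the length used. Tcf4 has 62 annotated transcripts and Tcf12 has 21, so their union length is long (27382 and 15529 bases). Divided by the longest transcript, the control means of the 3 genes were nearly equal, at 905.0 for Tcf3, 905.1 for Tcf4 and 963.6 for Tcf12 per kb.

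Summed Id and summed E-protein transcripts were of similar size in controls and far apart after stimulation. The Id sum was 1385, 2583 and 1551 per kb in controls and 7798, 9712 and 8438 after stimulation, while the E-protein sum was 1290, 1311 and 1405 and then 971.6, 1148 and 1011. Their ratio was 1.07, 1.97 and 1.10 in controls and 8.03, 8.46 and 8.35 in stimulated libraries. Control replicate 2 stood apart from the other controls, whereas the 3 stimulated ratios lay close together. With the longest transcript as length the ratio was 0.654, 1.21 and 0.660 in controls and 5.20, 5.26 and 5.30 after stimulation. No test was made of this ratio, because the choice of members fixes its direction, and transcript levels do not give protein amounts.

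**Figure D3:**
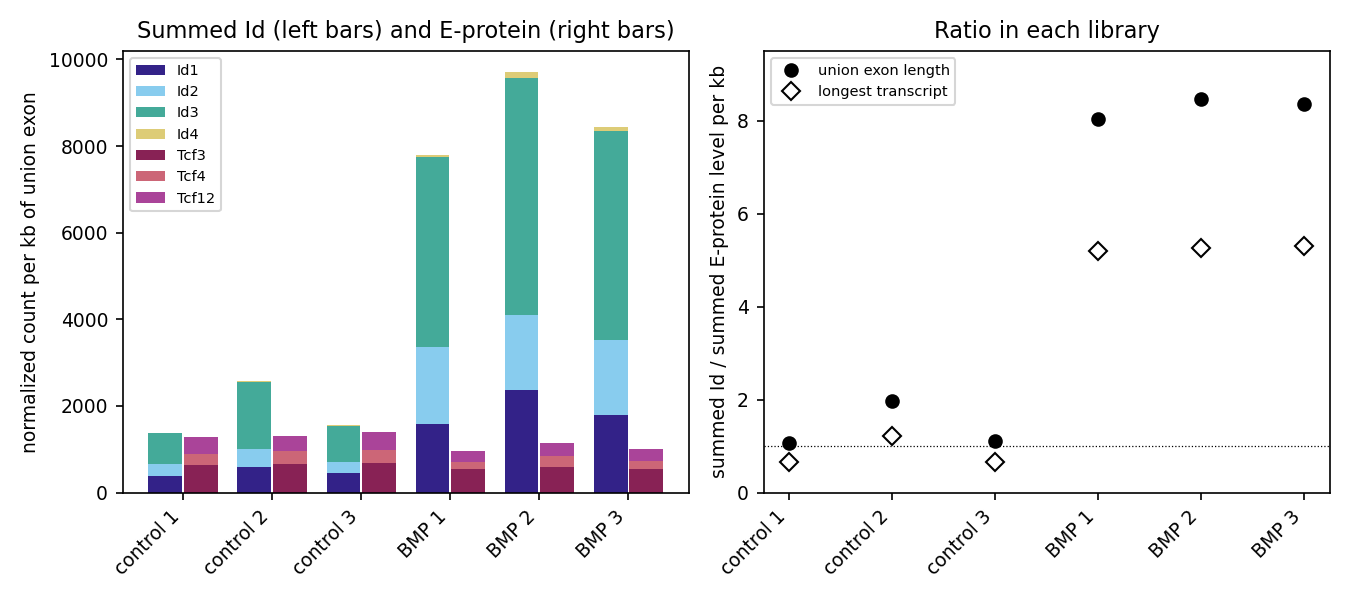
Left, stacked levels per kb of union exon of the 4 Id genes and the 3 E-protein genes in each library; right, the ratio of the summed levels with either gene length, with a dotted line at 1. The ratio lies between 1.07 and 1.97 in controls and between 8.03 and 8.46 in stimulated libraries for the union length.

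Against the whole transcriptome, Id3 moved from the level below which 94.1% of genes lie to 99%, Id1 from 86.7% to 96.8% and Id2 from 80.2% to 96.4%, ranked per kb of union exon over 21705 genes. Atoh8 went from 60.4% to 87.5% and Id4 from 38.2% to 58.8%. The E-protein genes moved the other way, Tcf3 from 90.5% to 87.7%, Tcf12 from 83.8% to 77.2% and Tcf4 from 78.4% to 70.4%.

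Partners of the E-proteins outside the 8 genes were sparse. Of 48 listed class II bHLH factors, 19 were tested, and 8 of these had a mean under 20. Of the 19, 1 rose and 1 fell, where 8.61% of all genes rose and 4.75% fell. The median log2 change of this list was -0.42, against -0.03 over all genes tested, but it rested on single libraries: it was 0.02 without control replicate 2, 0.09 without stimulated replicate 1, and -0.27, -0.25 and -0.16 with the first control, the third control and the second stimulated library dropped in turn. Bhlhe22, a neural bHLH repressor, fell by 1.07 ± 0.19 on the log2 scale from 761, 636 and 936 to 447, 306 and 359 (limma adjusted p = 0.0146). Dropping the first control, the third control or the third stimulated library ended that call (adjusted p = 0.0591, 0.0578 and 0.0743). Tcf24, a little studied bHLH gene, rose by 1.03 ± 0.24 from 70, 73 and 67 to 156, 104 and 185 (limma adjusted p = 0.0329), and only leaving out stimulated replicate 2 among the 6 single libraries kept that call (0.0632 to 0.126 without the others).

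With the replicate block 2 of these factors rose, Tcf24 and Scx, and 4 fell, Bhlhe22, Msc, Twist2 and Olig1. Over all genes tested, 14.9% rose and 12% fell with the block. Genes beyond Tcf24 and Bhlhe22 were chosen after their values were seen. Msc, musculin, is a repressor that pairs with E-proteins, and Scx, scleraxis, a tendon bHLH factor. Msc stood at 33, 141 and 38 in controls and 0, 20 and 8 after stimulation (limma adjusted p = 0.00758 with the block and 0.104 without). Scx stood at 92, 119 and 97 and then 136, 249 and 152 (0.0149 with the block and 0.103 without). Neither pair of groups overlapped, as was so for 33.2% of all genes tested. The mesenchymal factors Twist1 and Tcf21 did not pass in either fit (log2 changes of -0.50 ± 0.50 and -0.29 ± 0.46), and Twist2 (-0.66 ± 0.79) passed with the block (limma adjusted p = 0.0174) but not without it (0.641).

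bHLH-Orange repressors, whose basic region binds DNA, mostly serve the Notch pathway and the clock. Among 10 tested genes 4 rose and 1 fell, where 8.61% of all genes rose and 4.75% fell. Their median log2 change was 0.97. The rises numbered 2 when control replicate 1 or 3 was dropped and 0 when stimulated replicate 3 was. Hes1, the classical Notch effector, went from 466, 864 and 509 to 1505, 1781 and 1612 (1.46 ± 0.23, limma adjusted p = 0.00889). Bhlhe40, a clock repressor, went from 1899, 3318 and 1833 to 5814, 5608 and 6091 (1.37 ± 0.22, limma adjusted p = 0.00982). Like Id2, both were closer together across stimulated libraries than across controls (for Bhlhe40, 1.09 against 1.81 times from lowest to highest). The fall was that of Hes6, an antagonist of Hes1, from 850, 860 and 750 to 520, 587 and 493 (-0.62 ± 0.11, limma adjusted p = 0.0146). Without stimulated replicate 3 none of the 3 was called (adjusted p = 0.0531, 0.0599 and 0.0741), and Hes6 was also lost when control replicate 1 was dropped (0.0684). The other rises, chosen after their values were seen, were Hey1 and Hey2, effectors shared by Notch and BMP signaling. Hey1 was at 70, 266 and 71 in controls and 697, 2849 and 1310 after stimulation, highest in replicate 2 of both groups. Its change of 3.63 ± 0.66 (limma adjusted p = 0.0148) was not called with control replicate 1 (0.0608), control 3 (0.0648) or stimulated 3 (0.0733) left out. Hey2 was at 29, 44 and 34 and then 56, 124 and 119 (limma adjusted p = 0.0448), a call kept without stimulated replicate 1 and lost without any of the other libraries (0.0594 to 0.171). Heyl, also named after its values were seen, went from 865, 2742 and 1025 to 2604, 7040 and 4456. Its change of 1.69 ± 0.505 did not pass (limma adjusted p = 0.0718) and passed with the replicate block (0.000491). With the block 5 of the list rose and 1 fell, where 14.9% of all genes rose and 12% fell.

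Leucine zipper and PAS-domain bHLH factors, which dimerize within their own classes, had 7 rises and 3 falls among 41 tested genes. By limma 8.61% of all genes rose and 4.75% fell. The median of the list was -0.03, equal to that of all genes. Arntl, the clock activator BMAL1, rose most, from 686, 621 and 697 to 4210, 2545 and 3650 (2.35 ± 0.18). Myc, a growth regulator, rose from 750, 904 and 734 to 1463, 2048 and 1769 (1.14 ± 0.15). Hif1a, the oxygen-regulated factor, rose from 5767, 6440 and 5949 to 8436, 9037 and 9303 (0.56 ± 0.08). All 3 passed limma (adjusted p = 0.000896, 0.00492 and 0.00651). The falls, named after their values were seen, were those of Tfap4 (-1.48 ± 0.21), Mitf (-0.96 ± 0.15) and Usf1 (-0.43 ± 0.09). With the replicate block 10 rose and 10 fell, where 14.9% of all genes rose and 12% fell. With equal library totals 4 rose and 6 fell. Dropping the first control, the third control or the third stimulated library left 3 rises and 2 falls each.

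Genes linked to Id proteins or to Id transcription moved in part. Of 7 genes listed under Id protein turnover, 3 rose and 1 fell, where 8.61% of all genes rose and 4.75% fell. The median was 0.28, and 0.13 with control replicate 1 dropped. The list is broader than its name, and no role of Vhl or Dyrk1b in Id breakdown is implied. Smurf2, a ubiquitin ligase of the BMP and TGF-beta pathways, rose from 3649, 3211 and 3562 to 9048, 7553 and 9229 (1.31 ± 0.10). Vhl, a ubiquitin ligase subunit, rose from 834, 939 and 723 to 1369, 1574 and 1499 (0.84 ± 0.12). Dyrk1b, a kinase known to phosphorylate ID2, fell from 689, 744 and 659 to 320, 298 and 341 (-1.12 ± 0.11). The third rise, named after its value was seen, was that of Wdr48 (0.31 ± 0.08), a cofactor of Usp1. Usp1, the deubiquitinase that stabilizes Id proteins, had a change of 0.28 ± 0.15 and did not pass.

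Of 9 transcriptional regulators of Id genes, 2 rose and none fell by limma, where 8.61% of all genes rose and 4.75% fell. At an unadjusted p under 0.05, 0 fell, and the median was 0.14. With the replicate block Sp1 and Egr1, named after their values were seen, also rose, where 14.9% of all genes did. Smad9 rose from 148, 176 and 160 to 370, 659 and 521 (1.64 ± 0.22), and Zfp423, a zinc finger partner of SMADs at BMP targets, from 209, 203 and 219 to 565, 597 and 525 (1.41 ± 0.11). Smad1, Smad5 and Smad4, which carry the signal to Id promoters, changed by -0.14 ± 0.25, -0.09 ± 0.15 and 0.13 ± 0.09 and did not pass. Atf3, a stress factor known to repress Id1, changed by -0.28 ± 0.17 and did not pass either. Beside them, the inhibitory Smad6 went from 181, 290 and 224 to 2387, 4890 and 2755, and Bmpr2 from 4244, 4788 and 4865 to 13061, 16230 and 15289. Acvrl1, the ALK1 gene, was at 2418 to 2529 in controls and 2172 to 3355 after stimulation, and these ranges overlap.

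The 6 tested genes for Id-binding proteins outside the bHLH class gave no call by limma (3 had an unadjusted p under 0.05, 2 higher and 1 lower). The smallest p belonged to Cav1, caveolin, at 15611, 15833 and 18611 in controls and 9323, 14970 and 10106 after stimulation (-0.57 ± 0.18, limma adjusted p = 0.0868). It passed without stimulated replicate 2 (0.0126). With the replicate block Cav1 fell and Rb1 and Elk3, named after their values were seen, rose, where 14.9% of all genes rose. Among 8 cell cycle genes linked to E-proteins, 1 fell and none rose by limma, where 4.75% of all genes fell and 8.61% rose. At an unadjusted p under 0.05, 0 rose, and the median was -0.38. The median was -0.07, -0.10 and -0.14 with control replicate 1, control replicate 3 and stimulated replicate 2 dropped in turn. The gene that fell was Cdkn2c, a cyclin-dependent kinase inhibitor, from 648, 1016 and 807 to 288, 531 and 291 (-1.19 ± 0.28, limma adjusted p = 0.0332), a call kept only without stimulated replicate 2 when single libraries were left out (0.0609 to 0.131 otherwise). Cdkn1a, the p21 gene that E-proteins are known to activate, was at 11615, 8370 and 10830 in controls and 10746, 10337 and 10737 after stimulation (0.06 ± 0.13). With the replicate block, under which 12% of all genes tested fell, 4 of the 8 fell. They were Cdkn2c and, named after their values were seen, Cdkn1b, Cdkn1c and Ccnd1.

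**Figure D4:**
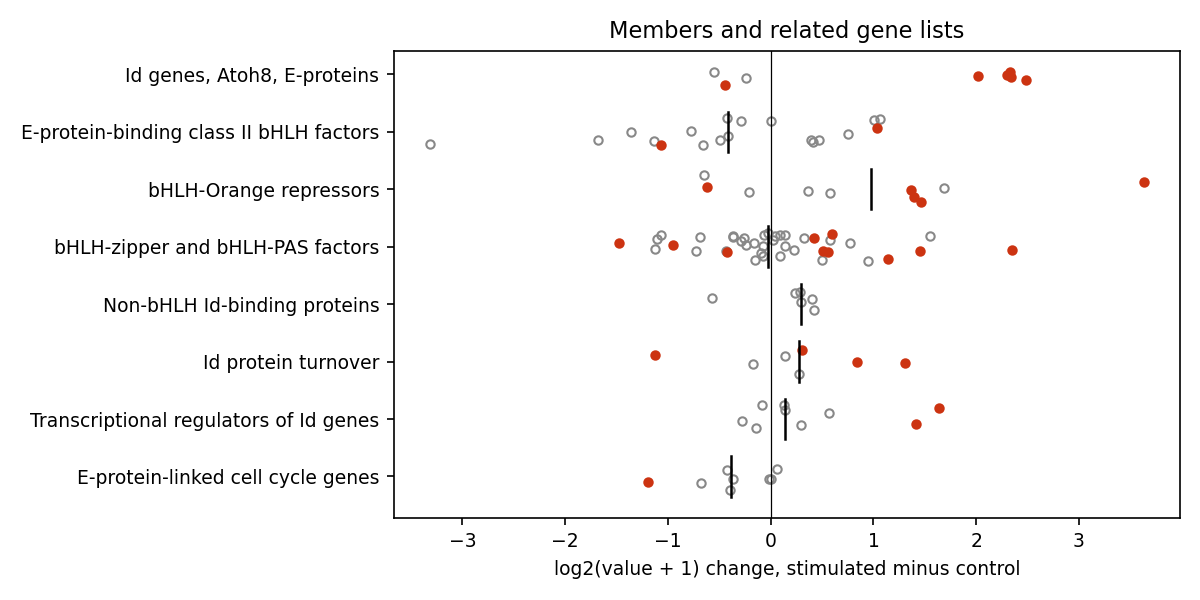
Log2(value + 1) change of the 8 genes and of each tested gene on the related lists; filled red points passed limma at an adjusted p of 0.05 and black ticks mark list medians. The induced members lie at 2.01 to 2.49, to the right of all but 2 of the other genes drawn, Hey1 and Arntl, of which Arntl falls within their range.

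Genes with the profile most like each induced member across the 6 libraries were found by the Euclidean distance between centred log2 profiles, among 11490 protein-coding genes with a mean of at least 100. Features that a neighbour shares with its member across the libraries follow from that choice and are no separate evidence. The nearest to Id1 were Pxdc1 (distance 0.28), Runx1 (0.28) and Nuak1 (0.28). Runx1, a transcription factor of blood and vessel development, went from 1201, 1859 and 1215 to 5126, 7543 and 6215, with the same high replicate 2 as Id1. Id2 lay nearest to Egr2 (0.39), Enc1 (0.43) and Klhl29 (0.44). Klhl29 went from 100, 100 and 62 to 526, 521 and 473, with stimulated libraries close together as for Id2.

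Id3 lay nearest to Piezo2 (0.28), a mechanically gated channel gene, Pcsk5 (0.37) and again Pxdc1 (0.38). Piezo2 went from 1555, 3844 and 1895 to 8920, 11651 and 9457. Atoh8 lay nearest to Lrrn2 (0.20), Bcl11a (0.28) and Unc5b (0.40), and Lrrn2 went from 73, 124 and 94 to 388, 774 and 444. The neighbours of Id4 were farther away, at 0.54 for Adam12, 0.62 for Fmod and 0.75 for Rasl12. Adam12, a metalloprotease gene, ran from 400, 1890 and 779 to 2939, 6572 and 4446, with the same wide controls as Id4. Among the members themselves the closest were Id2 and Id3 (0.54) and the farthest Id2 and Id4 (1.53). These distances cannot be set against those of the outside neighbours, since the nearest of 11490 genes tends to lie closer than the nearest of a few.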

How the data were processed

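Total RNA of 3 control and 3 stimulated samples was sequenced. The submitters' processing notes list, in no stated order, DESeq2 1.18.1, featureCounts 1.6.3, FastQC, STAR 2.6.1d and Trimmomatic 0.38, and name mm10 beside GRCh38 and hg38 as builds. Annotation and strand setting: not given in the sources used here. The authors deposited 1 score per gene and library: read counts times 1 factor per library, rounded to whole numbers. Whole numbers that were regularly skipped, or doubled up where the factor was below 1, show this. Reads were estimated from those steps and not recovered, so no count model was used.

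Identifiers were matched to GENCODE M21 (21747 of 21785). The test was limma 3.58.1 on R 4.3.3, using its trend option, on log2(value + 1), treatment as the only term, over the 21743 genes whose mean reached 1, with Benjamini-Hochberg adjustment over all of them at 0.05. Such fold changes understate those of low genes. Libraries sharing a number deviated together from their group means (correlations of 0.747, 0.741 and 0.218 in 13185 genes whose mean reached 50), and on that ground the replicate numbers were treated as pairs. What a number marks is not stated, and the third control deviated more like the first stimulated library (0.287).

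The members and lists were chosen with earlier results of these data known. Besides members, the text names up to 3 genes per list with the smallest p among those passing (1 if none), the 3 nearest profiles per induced member, and BMP pathway genes, and it gives other listed genes as values. Alternatives were other scalings, pseudocounts, filters, no trend, the block, and libraries left out.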

Additional observations from a re-analysis of the deposited data

How the results depend on the processing

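Id1, Id2, Id3 and Atoh8 stayed called and higher under all 17 alternatives, and all 8 members kept their direction. Leaving out 1 library each gave log2 changes of 1.85 to 2.19 for Id1, 2.36 to 2.67 for Id2, 2.12 to 2.68 for Id3, 1.74 to 2.71 for Id4, 2.01 to 2.57 for Atoh8, -0.29 to -0.21 for Tcf3, -0.70 to -0.43 for Tcf4 and -0.51 to -0.39 for Tcf12. Without the intensity trend Id4 (2.30, adjusted p = 0.0783) and Tcf12 (-0.45, 0.0848) were not called by limma, and Id4 was not called without both replicate 2 libraries (2.42, 0.0629). Tcf3 passed with upper-quartile factors (-0.32, 0.0386), equal totals (-0.41, 0.0174) and the replicate block (-0.24, 0.0439). Tcf4 passed with the stricter filter on low values (-0.55, 0.0449), TMM factors (-0.55, 0.0478), upper-quartile factors (-0.63, 0.0273), equal totals (-0.72, 0.0197), the replicate block (-0.55, 0.00611) and the second pair left out (-0.67, 0.041). The causes were not tested.

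Over all genes, limma called 2905 in the main test, 1610 without the trend, 5837 with the replicate block and 917 to 2384 without 1 library, lowest without stimulated replicate 3 (1164 without control replicate 1 and 1163 without control replicate 3). Equal totals turned 1873 rises and 1032 falls into 1135 and 2265. The block changed no call of an induced member. The mean ratio of Id to E-protein levels was 1.38 in controls and 8.28 after stimulation with the union length, 0.843 and 5.25 with the longest transcript, and 1.09 to 1.54 and 8.19 to 8.40 without 1 library. Acvrl1 changed sign without a call: 0.06 in the main test, -0.023 with upper-quartile factors, -0.12 with equal totals, -0.145 without the second pair, and -0.14 to 0.17 with 1 library left out (negative when that was stimulated replicate 2).

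Across the 17 alternatives, rises and falls ranged from 0 to 2 and 0 to 4 for class II factors, 0 to 5 and 0 to 1 for bHLH-Orange repressors, 3 to 10 and 2 to 10 for zipper and PAS factors, 0 to 2 and 0 to 1 for other Id-binding proteins, 2 to 3 and 1 to 2 for Id turnover, 2 to 4 and 0 for regulators of Id genes, and 0 and 0 to 4 for cell cycle genes. Id4 rests on the fewest reads, an estimated 31 in control replicate 1. Its SE was 0.53 without and 0.18 with the replicate block, and the part of read depth in its spread was not tested.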
